A study of Arabidopsis thaliana with 9 samples.

Results

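The xyloglucan endotransglucosylase/hydrolase (XTH) genes were taken as every gene whose probe set carried a single gene symbol made of XTH and a number. This rule found 9 genes among the 13356 genes measured, namely XTH16, XTH18, XTH19, XTH20, XTH21, XTH26, XTH29, XTH32 and XTH33, each with 1 probe set. The reference gene table lists 33 genes of the family. A further family gene, EXGT-A3, which the table also calls XTH27, was measured under that older symbol and is described beside them, so 23 family genes were not analysed here.

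Xyloglucan is the main hemicellulose of the primary wall of Arabidopsis, where it coats and links cellulose microfibrils. XTH enzymes cut its backbone and join the cut end either to another xyloglucan chain, which remodels the wall, or to water, which shortens the chain. The family is large, and its genes are known to differ in organ and in response to hormones, touch and growth. Sequence groups the members XTH29, XTH32 and XTH33, together with EXGT-A3, in a branch apart from the other 6. An array reports transcript levels and says nothing of which of the enzyme's activities is present.

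The samples were rosette leaves from 5-week plants of the Arabidopsis ecotype Col-0, and each was read on a one-colour ATH1 array, 9 in all. Wild type plants given water, bio4-1 plants given water and bio4-1 plants given 200 µM D-biotin had 3 arrays each. The bio4-1 line is a single T-DNA allele with the insertion in the 5' UTR of BIO4, a biotin synthesis gene, and biotin is the cofactor that carboxylases need. Each sample was a pool of 5 plants from trays watered weekly, so p-values measure the spread between pools. No probe set was annotated with BIO4, so the level of the mutated gene was not analysed here. Wild type plants given biotin were not among the groups. A leaf sample is a mixture of cells, in which fewer cells of a type and less RNA per cell cannot be told apart.

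Values are log2 expression summaries, on which a difference of 1 is a 2-fold change of signal. The arrays numbered 1 stood apart in all 3 groups. Pairs of arrays with exactly 1 of them correlated across probe sets at 0.950 to 0.972, against 0.987 to 0.997 among the other 6. The 3 pairs of arrays numbered 1 correlated at 0.950 to 0.994 with each other, so these arrays were not all alike. Deviations from the mean of each group correlated at 0.834 between array 1 of wild type and array 1 of biotin-watered bio4-1. Those of bio4-1 array 1 correlated with the same 2 arrays at 0.218 and 0.345. The 3' minus 5' difference of the actin control probe sets is a sign of RNA quality. It was 3.67 to 4.13 on the arrays numbered 1 and 2.27 to 2.76 on the other 6. That of GAPDH also separated them, at 1.55 to 2.61 against 0.58 to 0.98. That of ubiquitin did not, at 1.52 to 1.73 against 1.48 to 1.72. In the limma fit, 21.6% of all genes differed between arrays 2 and 3 and the arrays numbered 1. The differences below are therefore given over 9 arrays, which is the main analysis, and on arrays 2 and 3 alone. Of the leaf markers listed for this work only RCA, rubisco activase, was matched to a probe set, at 13.77 to 13.86 on every array. The root hair expansin EXPA7, the only root marker matched, lay at 3.68 to 3.90, and no flower or seed marker was matched. Matching used probe sets annotated with 1 gene. As 8730 probe sets had no annotated gene, an unmatched gene may still be on the array.

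XTH33, which encodes an unusual family member known as a plasma membrane protein, had the largest difference of the 9 members. Its level was 3.86, 3.91 and 4.07 on wild type arrays 1, 2 and 3. It was 3.99, 4.98 and 4.40 in bio4-1 and 4.05, 6.65 and 7.53 in bio4-1 given biotin. The wild type arrays lay close together near the low end of the signal, and only biotin-watered arrays 2 and 3 stood well above the rest. Biotin-watered array 1 was lower than bio4-1 arrays 2 and 3, so the groups overlapped. The wild type values stood just above the lower quartile of all probe sets, 3.67 to 3.75, and signal this near the low end limits how well the size of a difference from wild type is known.

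Between biotin-watered and water-grown bio4-1, XTH33 differed by 1.62 ± 0.77 (SE, n = 3 against 3; limma adjusted p = 1.00) over 9 arrays. When arrays 2 and 3 were fitted alone it rose by 2.40 ± 0.29 (SE, n = 2 against 2; limma adjusted p = 0.0114), with a 95% interval of 1.72 to 3.08. On the arrays numbered 1 the difference was 0.06, from 1 array against 1. The SE of the next value therefore rests on the spread between arrays 2 and 3 only. The change on arrays 2 and 3 exceeded that on the arrays numbered 1 by 2.34 ± 0.50 (SE; limma interaction adjusted p = 0.0199). Against wild type, XTH33 in biotin-watered bio4-1 differed by 2.13 ± 0.77 over 9 arrays (limma adjusted p = 1.00) and was 3.10 ± 0.29 higher on arrays 2 and 3 (limma adjusted p = 0.00276). Water-grown bio4-1 was 0.51 ± 0.77 above wild type over 9 arrays and 0.70 ± 0.29 above it on arrays 2 and 3, with limma adjusted p of 0.962 and 0.260.

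EXGT-A3, whose product is known from leaf veins, had its highest values in biotin-watered bio4-1, on arrays 2 and 3. Its levels were 8.89, 9.79 and 10.28 on wild type arrays 1, 2 and 3. They were 9.17, 10.72 and 10.71 in bio4-1 and 9.02, 11.12 and 11.31 in biotin-watered bio4-1. The array numbered 1 was the lowest of each group, and over all 3 arrays the groups overlapped. On arrays 2 and 3 the means lay in the order wild type (10.04), bio4-1 (10.71), bio4-1 with biotin (11.22). How many of all genes show such an order on 2 arrays a group was not counted. Biotin-watered bio4-1 rose above wild type by 1.18 ± 0.16 (SE; limma adjusted p = 0.00924) on arrays 2 and 3, but differed by 0.83 ± 0.70 (limma adjusted p = 1.00) over 9. The steps from wild type to bio4-1, 0.68 ± 0.16 (limma adjusted p = 0.0745), and from bio4-1 to biotin, 0.50 ± 0.16 (limma adjusted p = 0.171), did not pass on arrays 2 and 3. Over 9 arrays these steps were 0.55 ± 0.70 and 0.28 ± 0.70 (limma adjusted p = 0.956 and 1.00). Neighbours in that order were not separated by the test.

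XTH32 falls in the branch of the family with predicted hydrolase activity. It was the only member whose fall in the mutant passed, and only on arrays 2 and 3 alone or with array weights. Its levels were 8.44, 8.95 and 8.80 on wild type arrays 1, 2 and 3. In bio4-1 they were 7.99, 8.12 and 8.12, below every wild type array. In biotin-watered bio4-1 they were 8.62, 8.15 and 8.25, above every water-grown bio4-1 array and, on array 1 alone, above a wild type array. The difference between bio4-1 and wild type was −0.65 ± 0.17 (SE; limma adjusted p = 0.393) over 9 arrays. Biotin-watered bio4-1 then stood at 0.26 ± 0.17 against bio4-1 and −0.39 ± 0.17 against wild type (limma adjusted p = 1.00 for both). Fitted on arrays 2 and 3, XTH32 fell by 0.75 ± 0.10 (limma adjusted p = 0.0125), and array 1 of bio4-1 lay 0.46 below array 1 of wild type. With biotin it stayed low on arrays 2 and 3, at −0.68 ± 0.10 against wild type (limma adjusted p = 0.0117) and 0.08 ± 0.10 against bio4-1 (limma adjusted p = 0.786; 95% interval −0.16 to 0.31). On the arrays numbered 1 the biotin-watered sample was 0.64 above bio4-1 and 0.18 above wild type. The interaction of these changes with array number did not pass, with limma adjusted p of 0.0719 for biotin against water in bio4-1 and 0.0976 for biotin-watered bio4-1 against wild type.

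XTH29, whose product is known to reach the wall, was dim, and none of its differences passed. On arrays 1, 2 and 3 its levels were 3.71, 3.73 and 3.66 in wild type and 4.12, 3.99 and 3.87 in bio4-1. In bio4-1 given biotin they were 3.43, 3.80 and 3.75. All 3 bio4-1 arrays lay above the other 6. The difference from wild type was 0.29 ± 0.12 (SE; limma adjusted p = 0.694) and that with biotin was −0.33 ± 0.12 (limma adjusted p = 1.00) over 9 arrays. These were 0.23 ± 0.10 and −0.15 ± 0.10 on arrays 2 and 3, with limma adjusted p of 0.270 and 0.503.

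**Figure D1:**
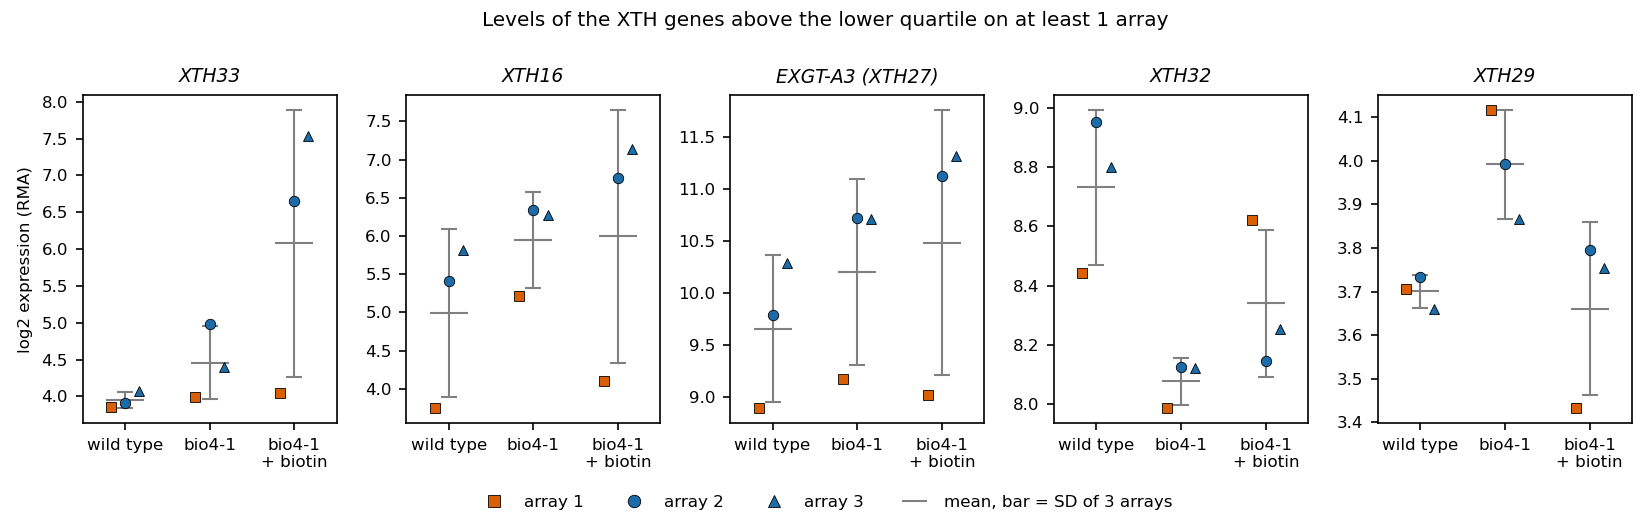
Log2 expression of XTH33, XTH16, EXGT-A3, XTH32 and XTH29 in wild type, bio4-1 and biotin-watered bio4-1; squares, circles and triangles are arrays 1, 2 and 3, the grey line is the mean and its bar the SD of 3 arrays. XTH33 reaches 6.65 and 7.53 on biotin-watered arrays 2 and 3 but 4.05 on array 1, and the bio4-1 values of XTH32, 7.99 to 8.12, lie below every wild type value.

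Of the 6 members outside this branch, XTH16 had the widest spread over the arrays. Its levels were 3.74, 5.41 and 5.81 on wild type arrays 1, 2 and 3. They were 5.22, 6.33 and 6.27 in bio4-1 and 4.10, 6.76 and 7.14 in biotin-watered bio4-1. The array numbered 1 was the lowest of each group, and over all 3 arrays the groups overlapped. On arrays 2 and 3 the means followed the same order as for EXGT-A3, at 5.61, 6.30 and 6.95. Over 9 arrays the differences were 0.96 ± 0.86 (SE) for bio4-1 against wild type, 0.05 ± 0.86 for biotin against water in bio4-1 and 1.01 ± 0.86 for biotin-watered bio4-1 against wild type, and none passed (limma adjusted p = 0.917, 1.00 and 1.00).

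XTH16 in biotin-watered bio4-1 was 1.34 ± 0.17 above wild type on arrays 2 and 3 (SE; limma adjusted p = 0.00698; 95% interval 0.93 to 1.74). The steps of 0.69 ± 0.17 from wild type to bio4-1 and 0.64 ± 0.17 from bio4-1 to biotin did not pass, with limma adjusted p of 0.0778 and 0.102. On the arrays numbered 1 the change with biotin ran the other way, at −1.12, and the difference between the arrays 2 and 3 value and this one was 1.76 ± 0.30 (SE; limma interaction adjusted p = 0.00835).

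Array number moved with these results. XTH16 was 1.93 ± 0.29 (SE; limma adjusted p = 0.00450) higher on arrays 2 and 3 than on the arrays numbered 1, EXGT-A3 1.63 ± 0.20 (limma adjusted p = 0.00231) and XTH33 1.29 ± 0.50 (limma adjusted p = 0.101), against 0.05 ± 0.15 for XTH32. The part of array number or of RNA quality in the differences between groups was not tested. Each group had 1 array numbered 1, so every interaction SE and p given here came from the spread between arrays 2 and 3. The arrays numbered 1 were taken to vary alike, which was not tested. Of the 9 members, only XTH16 and XTH33 passed the interaction of group and array number, and only for biotin against water in bio4-1. Over all genes this interaction passed for 14.5% in that comparison, 15.0% for bio4-1 against wild type and 0.547% for biotin-watered bio4-1 against wild type.

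**Figure D2:**
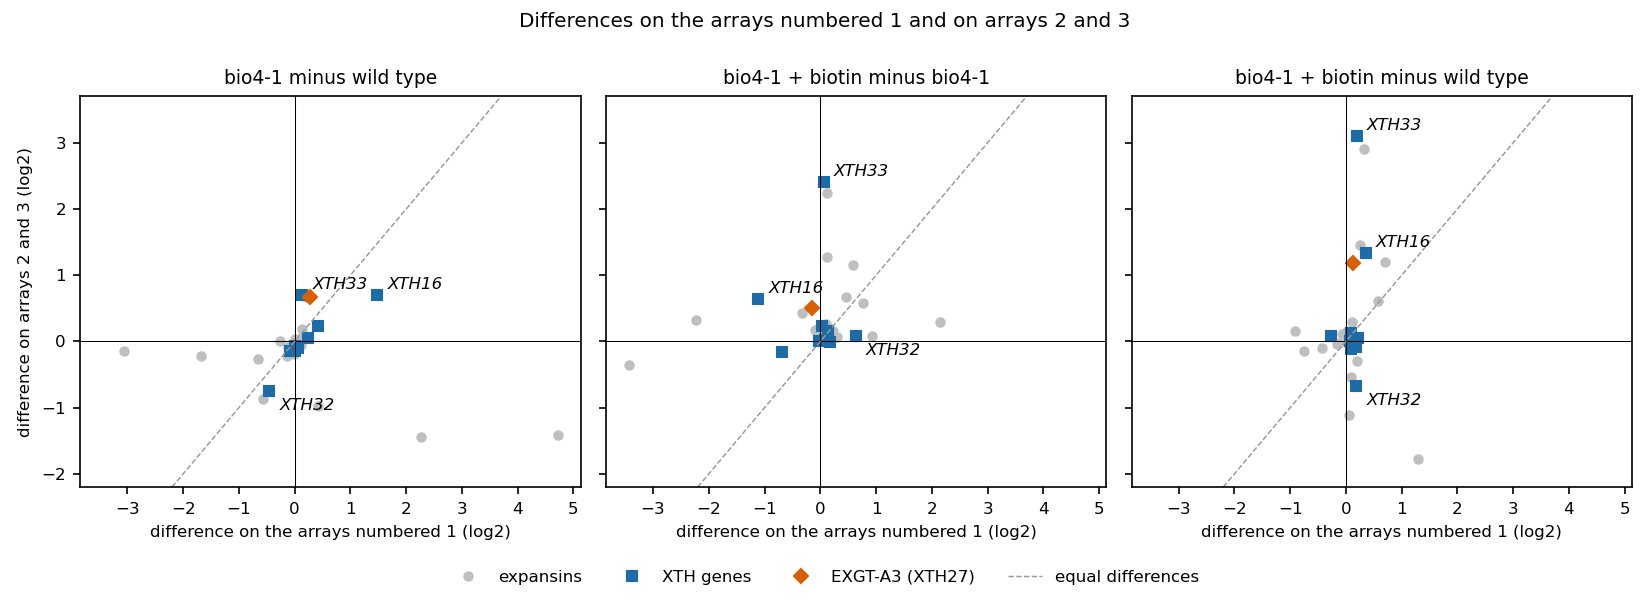
Each point is a gene, with its log2 difference on the arrays numbered 1 (x axis) against that on arrays 2 and 3 (y axis) for 3 comparisons; blue squares are the 9 XTH genes, the diamond is EXGT-A3, grey circles are 18 expansin genes and the dashed line marks equal differences. For biotin against water, XTH33 lies at 0.06 and 2.40 and XTH16 at −1.12 and 0.64, both far from the dashed line.

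The remaining 5 members, XTH18, XTH19, XTH20, XTH21 and XTH26, are known chiefly from roots, XTH26 from root hairs. In these leaves their values ranged from 2.97 to 3.54 and lay below the lower quartile of all probe sets, 3.67 to 3.75, on every array. Over the 9 arrays each varied by 0.22 to 0.34, whereas the median gene varied by 0.60. XTH18 and XTH19 are neighbours on the chromosome, with XTH24 on the other side of XTH18, and neither left the low end of the array in any group.

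XTH20, a root gene, was 3.38, 3.40 and 3.40 on wild type arrays 1, 2 and 3, 3.30, 3.27 and 3.24 in bio4-1 and 3.45, 3.46 and 3.37 with biotin. Its bio4-1 arrays lay below the other 6, but all 9 values spanned only 0.22. The mean differences over 9 arrays were −0.12 ± 0.07 (SE) from wild type and 0.15 ± 0.07 with biotin (limma adjusted p = 0.840 and 1.00). Over the 5 genes, the differences lay between −0.12 and 0.16 over 9 arrays and between −0.15 and 0.23 on arrays 2 and 3, and none passed. Their 95% intervals reached from −0.32 to 0.36 over 9 arrays and from −0.39 to 0.46 on arrays 2 and 3. Signal this near the low end can hide changes of transcripts, so these intervals bound the signal only.

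**Figure D3:**
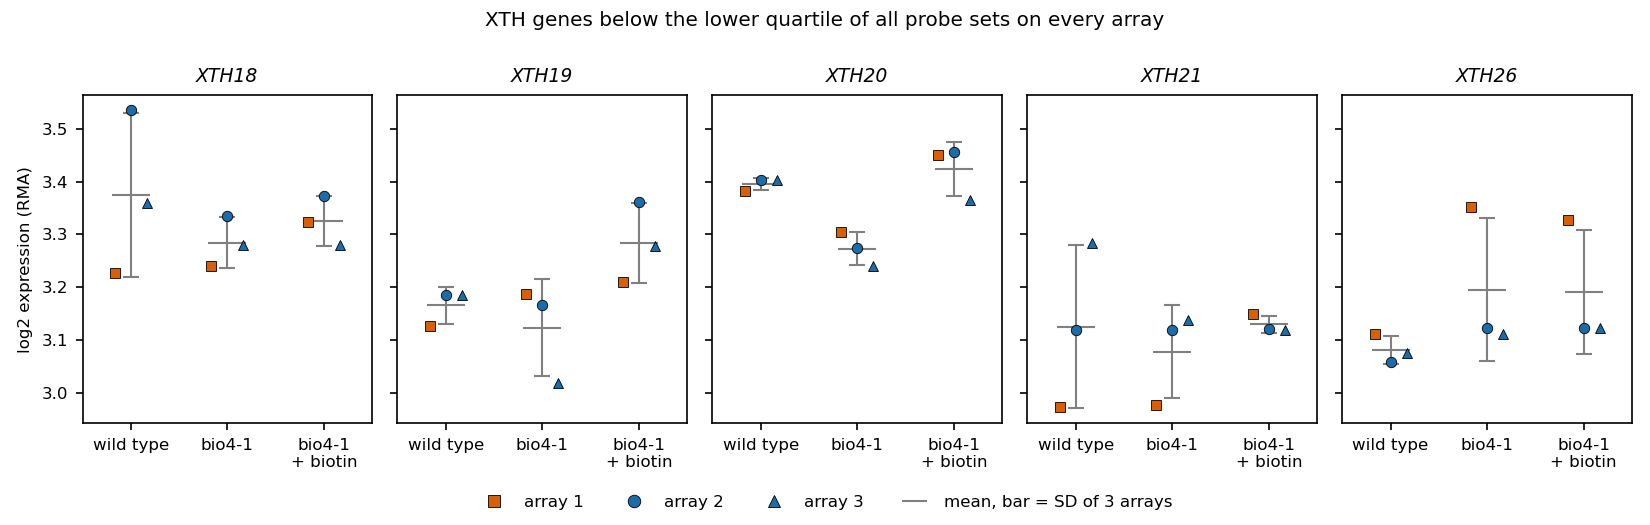
Log2 expression of the 5 dim members in the 3 groups on 1 shared axis, with squares, circles and triangles for arrays 1, 2 and 3 and bars of 1 SD around the mean of 3 arrays. Every value lies between 2.97 and 3.54, and the bio4-1 values of XTH20, 3.24 to 3.30, lie below those of both other groups.

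For bio4-1 against wild type, none of the 9 members passed the limma threshold over 9 arrays, where 0.0374% of all genes did. There, 2 members (XTH29 and XTH32) and 882 of 13356 genes (6.60%) had an unadjusted p under 0.05. On arrays 2 and 3, XTH32 passed as lower and no member passed as higher, where 3.39% of all genes passed. The median difference of the members was −0.04 over 9 arrays and −0.07 on arrays 2 and 3, against −0.03 and −0.02 over all genes. Without overlap between the 3 arrays of each group, XTH29 was higher and XTH20 and XTH32 were lower in bio4-1, which is 3 of 9, against 12.4% of all genes. Of these, XTH29 was dim and XTH20 lay below the lower quartile of all probe sets on every array. The share among genes this dim was not counted.

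For biotin against water in bio4-1, no member and 0.0% of all genes passed the limma threshold over 9 arrays. There, 1 member and 550 of 13356 genes (4.12%) had an unadjusted p under 0.05. On arrays 2 and 3, XTH33 passed as higher and no member passed as lower, where 2.74% of all genes passed. The median difference was 0.05 and 0.08, against 0.03 and 0.01 over all genes. XTH19, XTH20 and XTH32 were higher and XTH29 lower with biotin without overlap of the groups, or 4 of 9 members, against 8.72% of all genes. Of these, XTH29 was dim, and XTH19 and XTH20 lay below the lower quartile of all probe sets on every array. XTH19 was at most 3.19 with water and at least 3.21 with biotin.

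For biotin-watered bio4-1 against wild type, genotype and watering both differed. No member passed over 9 arrays, where 0.00749% of all genes did. An unadjusted p under 0.05 was found for XTH32 and XTH33, or 2 members, and for 308 of 13356 genes (2.31%). On arrays 2 and 3, XTH16 and XTH33 passed as higher and XTH32 as lower, or 3 of 9, where 4.29% of all genes passed. The median difference was 0.03 and 0.06, against 0.00 over all genes in both. XTH19 and XTH26 were higher in every biotin-watered array than in any wild type array, or 2 of 9, against 6.07% of all genes. Both lay below the lower quartile of all probe sets on every array. The highest wild type and lowest biotin-watered values were 3.19 and 3.21 for XTH19 and 3.11 and 3.12 for XTH26. This count is therefore not read as a result about the family. The 3 comparisons share groups with each other, so their calls are not separate evidence.

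**Figure D4:**
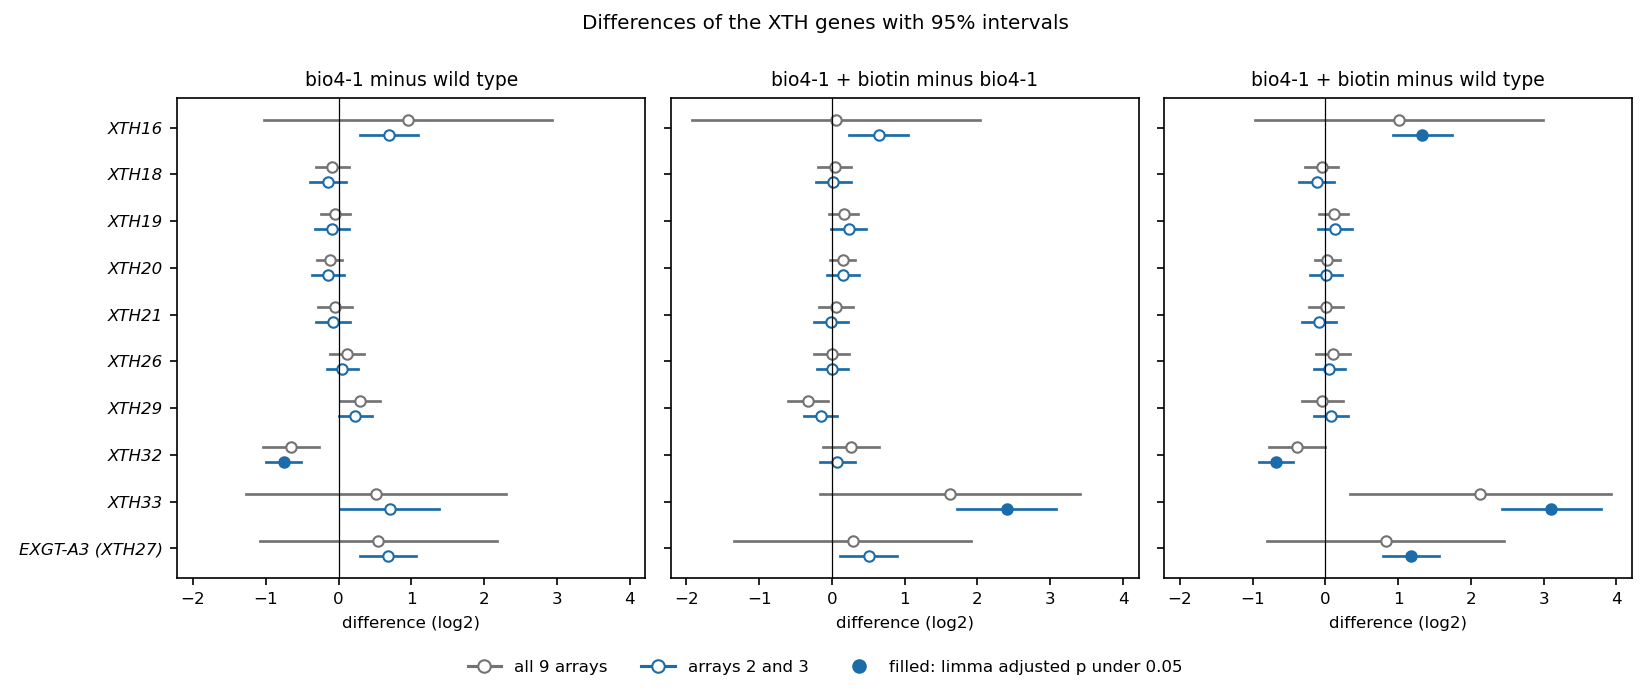
Log2 differences of the 9 XTH genes and EXGT-A3 in 3 comparisons, with 95% intervals from limma, over all 9 arrays (grey) and on arrays 2 and 3 (blue); filled circles have an adjusted p under 0.05. On all 9 arrays no circle is filled, and on arrays 2 and 3 the filled ones are those of XTH32, XTH33, XTH16 and EXGT-A3.

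The calls on arrays 2 and 3 rested on few arrays. When 1 of these 6 arrays was left out at a time, the group with a single array left was taken to vary like the others. In every such fit fewer of all genes passed than on the 6 arrays. Calls lost in this way, here and in the lists below, are therefore not particular to the genes named. XTH33 against water-grown bio4-1 then differed by 1.96 to 2.84 (limma adjusted p from 0.0416 to 0.149) and passed only without biotin-watered array 2. Against wild type it differed by 2.66 to 3.54 (limma adjusted p from 0.0278 to 0.0861) and was lost without wild type array 2 or 3. XTH16 against wild type passed only without biotin-watered array 2 (1.13 to 1.54; limma adjusted p from 0.0421 to 0.101), and EXGT-A3 only without wild type array 3 (0.93 to 1.43; limma adjusted p from 0.0349 to 0.106). XTH32 in bio4-1 passed only without biotin-watered array 2 or 3 (−0.83 to −0.68; limma adjusted p from 0.0476 to 0.182). In biotin-watered bio4-1 it passed in none of the 6 cases (−0.75 to −0.60; limma adjusted p from 0.0547 to 0.118).

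Other genes of wall extension were read for context, from lists of known genes. Of 18 expansin and expansin-like genes, together called expansins here, none passed in the main analysis over 9 arrays in any comparison. In each comparison, 2 of them had an unadjusted p under 0.05, beside the 6.60%, 4.12% and 2.31% of all genes given above. With array weights on the 9 arrays, 1, 4 and 6 expansins passed in the 3 comparisons, where 512, 423 and 1646 of 13356 genes did. On arrays 2 and 3, where 2.74% of all genes passed, 3 expansins passed as higher and none as lower with biotin. They were EXLA1 by 2.24 ± 0.16 (SE), EXLA2 by 1.28 ± 0.19 and EXPA16 by 1.15 ± 0.23, with limma adjusted p of 0.00303, 0.0190 and 0.0450. Over 9 arrays these differences were 1.53 ± 1.18, 0.89 ± 0.59 and 0.96 ± 0.40 (limma adjusted p = 1.00 for each). EXLA1, an expansin-like gene, differed by 0.12 with biotin on the arrays numbered 1, beside the 0.06 of XTH33. In bio4-1 against wild type on arrays 2 and 3, EXPA8, EXPA15 and EXPB1 fell by 1.42 ± 0.23, 0.98 ± 0.13 and 1.45 ± 0.10. Their limma adjusted p was 0.0205, 0.0110 and 0.00189, and no expansin passed as higher, where 3.39% of all genes passed. On the arrays numbered 1 these 3 were higher in bio4-1, by 4.72, 0.42 and 2.27, and over 9 arrays they differed by 0.63 ± 1.54, −0.51 ± 0.26 and −0.21 ± 0.86 (limma adjusted p = 0.982, 0.765 and 0.993). In biotin-watered bio4-1 against wild type, 3 expansins passed as higher and 2 as lower on arrays 2 and 3, where 4.29% of all genes passed. With 1 of these 6 arrays left out, 0 to 3 expansins passed for bio4-1 against wild type, 0 to 2 with biotin and 0 to 4 for the third comparison. None passed without wild type array 3 or bio4-1 array 2 in the first, without bio4-1 array 3 or biotin-watered array 3 in the second, or without wild type array 2 in the third.

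Of the 4 CSLC genes matched to a probe set, the family whose products make the xyloglucan backbone, only CSLC04 passed. With biotin it rose by 0.93 ± 0.13 (SE; limma adjusted p = 0.0140) on arrays 2 and 3 and differed by −0.63 on the arrays numbered 1. Over 9 arrays the difference was 0.41 ± 0.62 (limma adjusted p = 1.00). No gene of this list or of the growth, cellulose and pectin lists passed in the main analysis over 9 arrays in any comparison. EXO, a gene of brassinosteroid-dependent growth, rose by 1.36 ± 0.25 with biotin on arrays 2 and 3 (limma adjusted p = 0.0344), differed by −1.90 on the arrays numbered 1 and by 0.27 ± 1.56 over 9 arrays. THE1, a receptor kinase that senses the state of the wall, rose by 1.43 ± 0.15 (limma adjusted p = 0.00861), with differences of −1.26 on the arrays numbered 1 and 0.53 ± 1.24 over 9 arrays. Both genes were also higher in bio4-1 than in wild type plants on arrays 2 and 3, EXO by 2.85 ± 0.25 and THE1 by 0.92 ± 0.15, with limma adjusted p of 0.00441 and 0.0224. Over 9 arrays those differences were 2.70 ± 1.56 and 0.99 ± 1.24 (limma adjusted p = 0.828 and 0.955). The third matched gene of that growth list, FER, did not pass in any comparison. Of 3 pectin genes only ATPMEPCRB, a pectin methylesterase, passed, at 1.55 ± 0.19 above wild type in bio4-1 (limma adjusted p = 0.00842) and 1.89 ± 0.19 above it with biotin (limma adjusted p = 0.00311), both on arrays 2 and 3. Over 9 arrays it differed by 2.04 ± 0.95 and 1.29 ± 0.95 (limma adjusted p = 0.733 and 1.00). With 1 of the 6 arrays left out, the calls of CSLC04, EXO and THE1 with biotin and of THE1 in bio4-1 were lost in all 6 cases, that of EXO in bio4-1 in 3, and those of ATPMEPCRB in 4 without biotin and in 1 with it. COB, the only cellulose gene of the list matched to a probe set, did not pass in any comparison. No gene of the xyloglucan trimming list was matched. Over all genes, 3.39%, 2.74% and 4.29% passed on arrays 2 and 3 in the 3 comparisons.

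The genes most like XTH33 were ranked by Pearson's r of the log2 values over the 9 arrays, among 6012 genes with a mean of at least 6. They were AT3G60320, GT2, AT4G38040, AT3G02070 and RALFL22, at 0.95 to 0.97. On arrays 2 and 3 alone the values were 0.96 to 0.99. RALFL22, of the rapid alkalinization factor peptides, spanned 2.19 over the arrays and GT2, a trihelix transcription factor, 1.00, beside 3.67 for XTH33. The genes most like XTH16 were AT2G16660, CSLA03, AT1G74910, AT4G25940 and AT3G62780, at 0.97 to 0.99, and at 0.90 to 0.99 on arrays 2 and 3. CSLA03, of the cellulose synthase-like A family, spanned 3.95 beside 3.39 for XTH16. All points share arrays and the step between the arrays numbered 1 and the others, so these values are a description of this table.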

How the data were processed

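Leaf RNA of 9 samples in 3 groups was hybridised to ATH1 arrays. The deposited values are log2 summaries from RMA, per the submitters' processing notes, with the version not stated there. The table held 22810 probe sets, of which 64 control probe sets were left out and 22746 were tested. The probe annotation paired 13513 probe sets with 1 gene, 503 with several and 8730 with none. Each gene kept its probe set of highest mean, which gave 13356 genes, and names and gene order came from the TAIR10.1 table. Sequences were not used here.

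The comparisons used limma 3.58.1 (R 4.3.3) and 1 fit of all 9 arrays without a block. P-values were adjusted by Benjamini-Hochberg over all tested probe sets, and the threshold was 0.05. Counts are over genes. Precision is limited by 3 arrays a group. Alternatives were blocks, arrays 2 and 3, other normalizations, filters, variance models, array weights and leaving out each array, and the fit was tested on simulated data. The members and lists, and the use of arrays 2 and 3, were chosen with earlier results of these data known. Text names all members, the family gene under another symbol, list genes that passed (at most 3 a list and comparison) and the 5 genes most like XTH33 and XTH16. Tables were made in Python 3.11.15 with pandas 2.3.3, and plots with matplotlib 3.10.9.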

Additional observations from a re-analysis of the deposited data

How the results depend on the processing

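No XTH gene passed over 9 arrays with the replicate block (0 in each comparison), the arrays numbered 1 as a block, quantile normalization, median centring, trended and robust variances, fits of 2 groups, a threshold of 0.1, or with any 1 array left out. Deviations of same-numbered arrays correlated at −0.03 to 0.83, above 0.1 in 8 of 9 pairs, a hint of shared structure. The numbers were still not taken as a pairing, since the labels give them no meaning and 1 pair did not meet the rule that all exceed 0.1. The replicate block changed the calls over all genes from 5, 0 and 1 to 6, 0 and 1, and 6 of 9 arrays deviated most like an array of their own number. The next counts follow the order bio4-1 against wild type, biotin against water and biotin-watered bio4-1 against wild type. On arrays 2 and 3, 453, 366 and 573 of 13356 genes passed, and with array weights 512, 423 and 1646 did. The number of XTH genes passing was 1, 1 and 3 in both of these fits. Over all fits that left out 1 array, with or without the arrays numbered 1, it was 0 to 1, 0 to 1 and 0 to 2. The filter at a mean of 6 left only XTH32 and that at the 30th percentile XTH16, XTH32 and XTH33, none of which passed, and choosing among probe sets could not be tried, since each gene had 1.

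Of the single-gene values under an alternative, 51 turned sign, 21 newly passed and 672 did neither. None of these genes passed in the main analysis, so no turn could be that of a main call. For biotin against water, XTH21 was −0.0084 on arrays 2 and 3, XTH26 was 0.0061 there and 0.051 with median centring, XTH18 was −0.00075 with quantile normalization, and XTH16 was −1.12 on the arrays numbered 1 alone. For biotin-watered bio4-1 against wild type, XTH21 was −0.081 on arrays 2 and 3, −0.0076 with quantile normalization and −0.020 with array weights, and XTH29 was 0.078 and 0.061 on arrays 2 and 3 and with array weights. With 1 array left out, bio4-1 against wild type ranged from −0.17 to 0.011 for XTH19 and from −0.15 to 0.031 for XTH21. Biotin against water then ranged from −0.52 to 1.00 for XTH16, −0.23 to 1.02 for EXGT-A3, −0.027 to 0.066 for XTH18, −0.017 to 0.082 for XTH21 and −0.072 to 0.074 for XTH26. Biotin-watered bio4-1 against wild type ranged from −0.21 to 0.033 for XTH18, −0.038 to 0.057 for XTH20, −0.16 to 0.083 for XTH21 and −0.11 to 0.11 for XTH29. The cause of these turns was not tested.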

Other observations

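Among the dim members, some deposited values were exactly equal on more than 1 array. XTH21 had the same value, 3.12, on 3 arrays, and so did XTH26 with 3.12 on 3 arrays. Counted as repeats of a value already seen on another array, there were 3 in XTH26, 2 in XTH21 and 1 each in XTH19 and XTH20. Repeats occurred in 4 of 9 members, against 46.9% of all genes and 70.7% of the 3051 genes below the lower quartile on every array. Their part in the non-overlap of XTH19, XTH20 and XTH26 between groups was not tested.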
